A study of Homo sapiens with 21 samples.

Results

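The 10 genes described here code for the enzymes of de novo purine synthesis and for CAD, the enzyme that starts pyrimidine synthesis. They were chosen by name, as the genes PPAT, GART, PFAS, PAICS, ADSL, ATIC, IMPDH1, IMPDH2, GMPS and CAD, out of 65065 genes in the deposited table. All 10 were among the 19556 genes that passed the filter on low counts. The cells were HCT-116, a human colorectal carcinoma line of epithelial-like cells, grown in medium with exosome-depleted serum. They were exposed to extracellular vesicles (EVs), small membrane-enclosed particles shed by cells, which GlyExo-Capture had isolated out of human serum. HCC+ EVs came from serum of HCC patients and HCC- EVs from serum of healthy people, each given at 0.048, 0.24 or 1.2 mg/mL, and blank cells served as controls. The labels do not spell out HCC, which commonly stands for hepatocellular carcinoma. Each of the 7 groups had 3 libraries of poly(A) RNA, 21 in all. The labels do not say whether the libraries were made from separate cultures, nor how many people gave serum, so p-values measure the spread between these libraries only.

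Purine rings are built on ribose phosphate, starting from PRPP. PPAT, the glutamine-dependent amidotransferase, catalyses the first committed step. GART, PFAS, PAICS, ADSL and ATIC then build the ring up to IMP, several of them carrying more than one enzyme activity in 1 protein. IMP dehydrogenases (IMPDH1 and IMPDH2) and GMP synthetase (GMPS) convert IMP to GMP, and the AMP branch also uses ADSL. CAD joins the first 3 activities of pyrimidine synthesis in 1 polypeptide. Proliferating cells, colorectal carcinoma lines among them, draw on both pathways for DNA and RNA, and genes of the pathways are known targets of the transcription factor MYC.

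PPAT and PAICS are neighbours with divergent transcription, and their shared start region is shown for that reason. Their r of log2 CPM over 21 libraries was 0.97. This value was not particular to the pair, as PAICS had r = 0.99 with GMPS and 0.97 with ATIC and GART, on other chromosomes. RefSeq on GRCh38.p14 places the start of PPAT at base 56435615 on the minus strand of chromosome 4 and that of PAICS at base 56435752 on the plus strand, 137 bases apart. The promoter windows hold 250 bases before and 50 bases after a start, and those of the pair share 236 bases. The PAICS window, chr4:56435502-56435801 on the plus strand, is written 5′ to 3′ with the E-box CACGTG in capitals.
PAICS: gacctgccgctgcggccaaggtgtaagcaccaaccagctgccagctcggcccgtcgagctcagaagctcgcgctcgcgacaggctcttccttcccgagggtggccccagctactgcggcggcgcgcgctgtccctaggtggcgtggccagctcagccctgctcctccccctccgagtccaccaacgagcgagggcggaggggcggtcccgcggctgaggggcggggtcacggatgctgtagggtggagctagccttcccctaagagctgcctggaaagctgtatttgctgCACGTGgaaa
On the plus strand the first base of this E-box is at position 41 counted from the PAICS start. On the minus strand, counted from the PPAT start, its first base is at -182, which is the last base of the site on the plus strand. The ATIC window, chr2:215311809-215312108 on the plus strand, holds 2 such E-boxes, at positions -46 and 30.
ATIC: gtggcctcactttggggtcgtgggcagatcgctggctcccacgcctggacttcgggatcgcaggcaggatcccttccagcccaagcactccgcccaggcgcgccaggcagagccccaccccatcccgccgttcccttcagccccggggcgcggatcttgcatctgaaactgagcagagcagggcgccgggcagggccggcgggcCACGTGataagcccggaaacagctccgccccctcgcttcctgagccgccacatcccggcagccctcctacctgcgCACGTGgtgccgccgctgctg
The CAD window, chr2:27217119-27217418 on the plus strand, is shown because CAD is the pyrimidine gene of the list, and the letters CACGTG are not in it. Bases beyond the 50 after a start were not searched for any gene, so CACGTG may occur there.
CAD: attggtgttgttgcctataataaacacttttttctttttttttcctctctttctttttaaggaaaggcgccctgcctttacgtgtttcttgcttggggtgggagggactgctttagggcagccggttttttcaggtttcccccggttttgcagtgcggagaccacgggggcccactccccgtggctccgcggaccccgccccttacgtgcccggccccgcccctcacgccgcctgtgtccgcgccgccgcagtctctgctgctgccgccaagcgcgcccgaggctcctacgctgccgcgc
Windows of 8 of the 10 genes were found in the RefSeq table, which had none under the names ADSL and IMPDH2. CACGTG, the letters that MYC and MAX bind, occurred in windows of PPAT, PAICS and ATIC, against 7.3% of all 35116 promoter windows, searched on both strands. The PPAT and PAICS matches are the same site, in the bases that their windows share. GGGCGG, the GC box, occurred in at least 1 window of each of the 8 genes, against 45.0% of all windows. CCAAT occurred in windows of GART and CAD, against 34.6% of all windows. TGCGCA, part of the NRF1 site, occurred in the ATIC window, against 8.2%. Windows of GART, PFAS, IMPDH1 and GMPS held no CACGTG either, and 1 of the 3 PAICS windows held it. GGGCGG was not in every window of GART and PAICS, which had 3 windows each while the other genes had 1. Genes are counted here over all their windows and the shares are per window, so these are unlike measures. A match describes these letters only, and no binding was measured.

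In cells without EVs the members spanned a wide range of transcript levels. CPM values are counts divided by each library's TMM-adjusted size, and levels of different genes are compared only per kilobase of exon (CPM per kb). IMPDH2 was highest in the blank at 175 ± 15.3 CPM per kb, followed by PAICS at 109 ± 6.56 (mean ± SD, n = 3). ATIC with 48.0 ± 0.615 and GART with 46.8 ± 0.91 CPM per kb differed by less than the sum of their SDs. CAD had 39.8 ± 3.15 and IMPDH1 25.8 ± 4.1 CPM per kb. GMPS with 19.7 ± 0.603 and PPAT with 19.4 ± 2.41 CPM per kb differed by less than the SD of PPAT. PFAS had 14.3 ± 1.28 CPM per kb. ADSL was listed at 1.95 ± 0.225 CPM per kb, which cannot be read as its level. Of the coding bases of ADSL, 68.8% also belong to a second gene entry on the same strand in the deposited table (ENSG00000284431, with 24 counts in all libraries), and how reads shared by 2 genes were counted is not given in the sources used here. ADSL had 10514 counts over the 21 libraries, against 84408 to 657417 for the other members. PPAT shared 121 exon bases and IMPDH2 93 exon bases with genes on the opposite strand, which held 122 and 110 counts in all libraries. Exons of the remaining members overlapped no other gene of the table. Among pseudogenes named after members, IMPDH1P8 held the most counts beside its parent gene, 557 or 0.598% of those of IMPDH1.

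The members lie on 7 chromosomes, in GRCh38 coordinates of the deposited table. PPAT (ENSG00000128059) spans chr4:56393362-56435615 and PAICS (ENSG00000128050) chr4:56435741-56464579. GART (ENSG00000159131) spans chr21:33503931-33543491, PFAS (ENSG00000178921) chr17:8247618-8270491 and ADSL (ENSG00000239900) chr22:40346500-40390463. ATIC (ENSG00000138363) spans chr2:215311956-215349773 and CAD (ENSG00000084774) chr2:27217369-27243943. IMPDH1 (ENSG00000106348) spans chr7:128392277-128410252, while IMPDH2 (ENSG00000178035) at chr3:49024325-49029408 and GMPS (ENSG00000163655) at chr3:155870650-155944020 share a chromosome. All values count reads over the exons of a gene.

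Libraries held 31.22 to 64.01 M (mega) counts. On the first principal component, with 34.6% of the variance, the 6 libraries at 1.2 mg/mL lay at -87.6 to -25.5 and the other 15 at 12.3 to 31.6. Epithelial markers (EPCAM, CDH1, KRT8, KRT18, KRT19, CDX2 and CDX1) summed to 3897 to 4146 CPM with HCC+ EVs at 1.2 mg/mL, 3286 to 3557 with HCC- EVs at 1.2 mg/mL and 3675 to 4473 in the blank, with CDX1 at or near 0. Summed platelet markers (4 genes) were 17.78 to 19.95 CPM with HCC+ EVs at 1.2 mg/mL, 11.3 to 13.4 with HCC- EVs at 1.2 mg/mL and 25.9 to 29.9 in the blank, with PPBP and PF4 at 0 in every library. Summed liver markers (4 genes) were 3.08 to 3.52 CPM with HCC+ EVs at 1.2 mg/mL, 2.19 to 3.25 with HCC- EVs at 1.2 mg/mL and 1.86 to 2.29 in the blank. Summed erythroid markers (4 genes) stayed under 1 CPM in every library, at 0.265 to 0.821 with HCC+ EVs at 1.2 mg/mL, 0.371 to 0.935 with HCC- EVs at 1.2 mg/mL and 0.0677 to 0.15 in the blank. Summed leukocyte markers (6 genes) were 3.24 to 4.62 CPM with HCC+ EVs at 1.2 mg/mL, 5.75 to 8.14 with HCC- EVs at 1.2 mg/mL and 1.63 to 1.82 in the blank, and CD3E and PTPRC did not exceed 0.08 CPM in any library. Summed endothelial markers (PECAM1, VWF and CDH5) were 2.58 to 3.29 CPM with HCC+ EVs at 1.2 mg/mL, 5.70 to 7.81 with HCC- EVs at 1.2 mg/mL and 0.508 to 0.591 in the blank. Proliferation markers (MKI67, TOP2A and PCNA) summed to 1036 to 1277 CPM with HCC+ EVs at 1.2 mg/mL, 779 to 803 with HCC- EVs at 1.2 mg/mL and 1560 to 1659 in the blank, and all 3 fell with EVs of either source. The epithelial sum with HCC+ EVs lay within the range of the blank, and the liver sum with HCC- EVs overlapped it. The other sums lay apart from the blank at 1.2 mg/mL, some below it and some above. At this dose the members changed too, and the part of the markers in those changes was not tested.

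At 1.2 mg/mL most enzymes of purine synthesis had lower transcript levels than in the blank, and 6 of the 10 members were higher with HCC+ than with HCC- EVs. With HCC+ EVs 8 of 10 members fell and none rose, where 17.4% of all tested genes fell and 15.6% rose (edgeR's quasi-likelihood F test, 2-sided, Benjamini-Hochberg adjusted p under 0.05 over all tested genes). With HCC- EVs all 10 members fell, where 28.5% of tested genes fell and 24.8% rose. With total count scaling 7 members fell with either source, where 2069 of 19556 tested genes fell with HCC+ EVs and 3097 with HCC- EVs. The median log2 fold change of the members was -0.33 with HCC+ EVs, beside 0.01 over all tested genes, and -0.65 with HCC- EVs, beside 0.05. Libraries did not overlap between EV-treated cells and blank for 7 members with HCC+ EVs, where all EV libraries lay below the blank for 19.6% of tested genes, and for 8 with HCC- EVs, where this held for 28% of tested genes. Both comparisons share the 3 blank libraries. Fewer cells of a type and less RNA per cell cannot be told apart in these bulk libraries. Log2 fold changes below are given ± a standard error derived from the F statistic of the same fit.

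**Figure D1:**
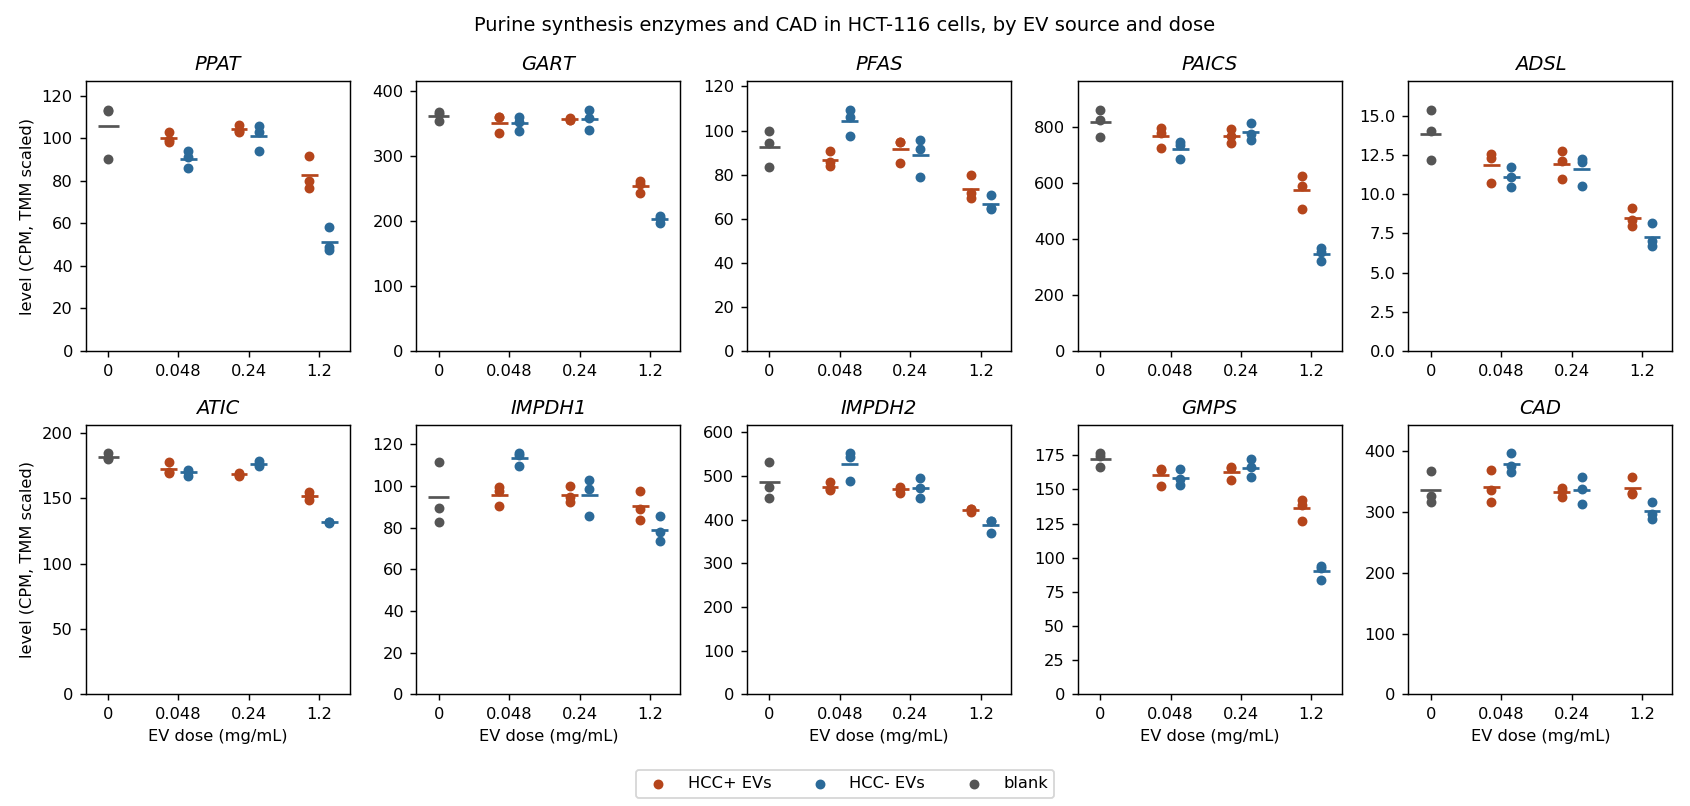
Transcript levels (CPM, TMM scaled, linear axis from 0) of the 10 genes against EV dose in mg/mL, with the blank at 0; each point is a library and each bar the mean of 3. With HCC- EVs at 1.2 mg/mL the 3 PAICS libraries sit at 322 to 369 CPM, below the HCC+ libraries at 508 to 627 and the blank at 764 to 861.

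PPAT, the entry enzyme, had 76.7, 91.9 and 80.2 CPM with HCC+ EVs at 1.2 mg/mL, 58.3, 47.4 and 48.8 CPM with HCC- EVs at this dose, and 113, 90.5 and 113 CPM in the blank. The HCC- libraries were all below the others, and the highest HCC+ library lay just above the lowest blank library. The log2 fold change was -0.35 ± 0.08 with HCC+ EVs (adjusted p 0.00115) and -1.04 ± 0.08 with HCC- EVs (adjusted p 4.01e-12). PAICS, which carries a carboxylase and a synthetase activity of the middle of the pathway, had 508, 627 and 591 CPM with HCC+ EVs, 369, 353 and 322 CPM with HCC- EVs, and 861, 764 and 826 CPM in the blank. The 3 groups did not overlap, with the blank highest. PAICS fell by 0.51 ± 0.07 on the log2 scale with HCC+ EVs (adjusted p 5.14e-07) and by 1.23 ± 0.07 with HCC- EVs (adjusted p 7.08e-16), a level 2.35-fold lower than in the blank.

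GART, with 3 activities of the pathway in 1 protein, had 243, 261 and 257 CPM with HCC+ EVs at 1.2 mg/mL, 208, 204 and 197 CPM with HCC- EVs, and 368, 355 and 365 CPM in the blank. Its groups did not overlap either. The change was -0.51 ± 0.05 with HCC+ EVs (adjusted p 6e-09) and -0.83 ± 0.05 with HCC- EVs (adjusted p 1.92e-14). PFAS, the glutamine-using synthase that follows GART's first steps, had 69.3, 71.8 and 79.9 CPM with HCC+ EVs, 64.3, 70.8 and 64.8 CPM with HCC- EVs, and 83.4, 99.7 and 94.3 CPM in the blank. Both EV groups were below the blank, and they overlapped each other. PFAS changed by -0.33 ± 0.08 with HCC+ EVs (adjusted p 0.00109) and by -0.47 ± 0.08 with HCC- EVs (adjusted p 3.84e-06).

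ADSL, the lyase used both before IMP and in the AMP branch, had 7.99, 9.13 and 8.39 CPM with HCC+ EVs, 7.02, 6.71 and 8.14 CPM with HCC- EVs, and 14.0, 12.2 and 15.4 CPM in the blank. These are the counted reads only, given the exons that ADSL shares with a second entry. Its change was -0.70 ± 0.11 with HCC+ EVs (adjusted p 1.07e-05) and -0.92 ± 0.11 with HCC- EVs (adjusted p 2.72e-08), with both EV groups below the blank. ATIC, which closes the ring to IMP, had 149, 155 and 152 CPM with HCC+ EVs, 132, 132 and 131 CPM with HCC- EVs, and 184, 181 and 180 CPM in the blank. The 3 libraries of each ATIC group lay close together, and its 3 groups did not overlap. The change was -0.26 ± 0.05 with HCC+ EVs (adjusted p 0.000126) and -0.46 ± 0.05 with HCC- EVs (adjusted p 2.19e-09). The summed CPM of the 6 enzymes from PPAT to ATIC was 1146 ± 83.1 with HCC+ EVs at 1.2 mg/mL, 808 ± 33.3 with HCC- EVs and 1573 ± 64 in the blank (SD, n = 3). This sum is not adjusted for exon length and takes ADSL as counted. Per kilobase of exon PAICS was the highest of the 6 in each of these groups, at 76.5, 46.3 and 109 CPM per kb.

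The branch to GMP changed unevenly. GMPS, the glutamine-dependent last step, had 127, 143 and 139 CPM with HCC+ EVs, 92.7, 93.7 and 83.6 CPM with HCC- EVs, and 176, 167 and 175 CPM in the blank. Its groups did not overlap, and it changed by -0.34 ± 0.06 with HCC+ EVs (adjusted p 4.78e-05) and by -0.94 ± 0.06 with HCC- EVs (adjusted p 4.28e-14). IMPDH2, the isoform known for its induction in proliferating cells, had 416, 423 and 424 CPM with HCC+ EVs, 370, 398 and 397 CPM with HCC- EVs, and 475, 532 and 449 CPM in the blank. Every EV library was below every blank library. IMPDH2 changed by -0.20 ± 0.06 with HCC+ EVs (adjusted p 0.00723) and by -0.32 ± 0.06 with HCC- EVs (adjusted p 2.64e-05). Without blank replicate 2, the highest of the 3, the HCC+ value was -0.13 with adjusted p 0.0697, and with only the groups compared it was -0.19 with adjusted p 0.0634. Total count scaling gave -0.08 with HCC+ EVs (adjusted p 0.251) and -0.04 with HCC- EVs (adjusted p 0.565). With GC and length trends removed IMPDH2 was at -0.06 with HCC+ EVs (adjusted p 0.236) and -0.04 with HCC- EVs (adjusted p 0.37).

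IMPDH1, the isoform known as the more constitutive one, had 89.0, 83.8 and 97.7 CPM with HCC+ EVs, 77.7, 85.5 and 73.8 CPM with HCC- EVs, and 89.5, 111 and 82.6 CPM in the blank. Both EV groups overlapped the blank. The change was -0.07 ± 0.08 with HCC+ EVs (adjusted p 0.585, 95% interval -0.25 to 0.11) and -0.26 ± 0.08 with HCC- EVs (adjusted p 0.0101). The HCC- call ended without HCC- replicate 3 (-0.21, adjusted p 0.0748) or without blank replicate 2 (-0.13, adjusted p 0.155), and without that blank library the HCC+ value was 0.07 (adjusted p 0.551). With only the groups compared the HCC- value was -0.24 (adjusted p 0.0654). With GC and length trends removed IMPDH1 was called with HCC+ EVs too, at -0.15 (adjusted p 0.0206). IMPDH2 over IMPDH1, per length, was 6.19 ± 0.467 with HCC+ EVs at 1.2 mg/mL, 6.51 ± 0.517 with HCC- EVs and 6.83 ± 0.461 in the blank (SD, n = 3), and the ranges of the 3 groups overlapped.

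CAD, like IMPDH1, was not called with HCC+ EVs and had a weak call with HCC- EVs. CAD had 331, 330 and 357 CPM with HCC+ EVs at 1.2 mg/mL, 296, 316 and 289 CPM with HCC- EVs, and 316, 366 and 326 CPM in the blank. The HCC+ libraries lay within the range of the blank, and the highest HCC- library reached just above the lowest blank library. The log2 fold change was 0.01 ± 0.06 with HCC+ EVs (adjusted p 0.906, 95% interval -0.12 to 0.15) and -0.16 ± 0.06 with HCC- EVs (adjusted p 0.0334). The HCC- call ended without HCC- replicate 1 (-0.15, adjusted p 0.0979), HCC- replicate 3 (-0.13, adjusted p 0.152) or blank replicate 2 (-0.10, adjusted p 0.178). It also ended with RLE size factors (-0.14, adjusted p 0.0581), DESeq2 (-0.14, adjusted p 0.0636) and only the groups compared (-0.14, adjusted p 0.15), and turned to 0.12 (adjusted p 0.112) when libraries were scaled to their total count alone. With GC and length trends removed CAD was at -0.24 with HCC- EVs (adjusted p 6.2e-06).

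**Figure D2:**
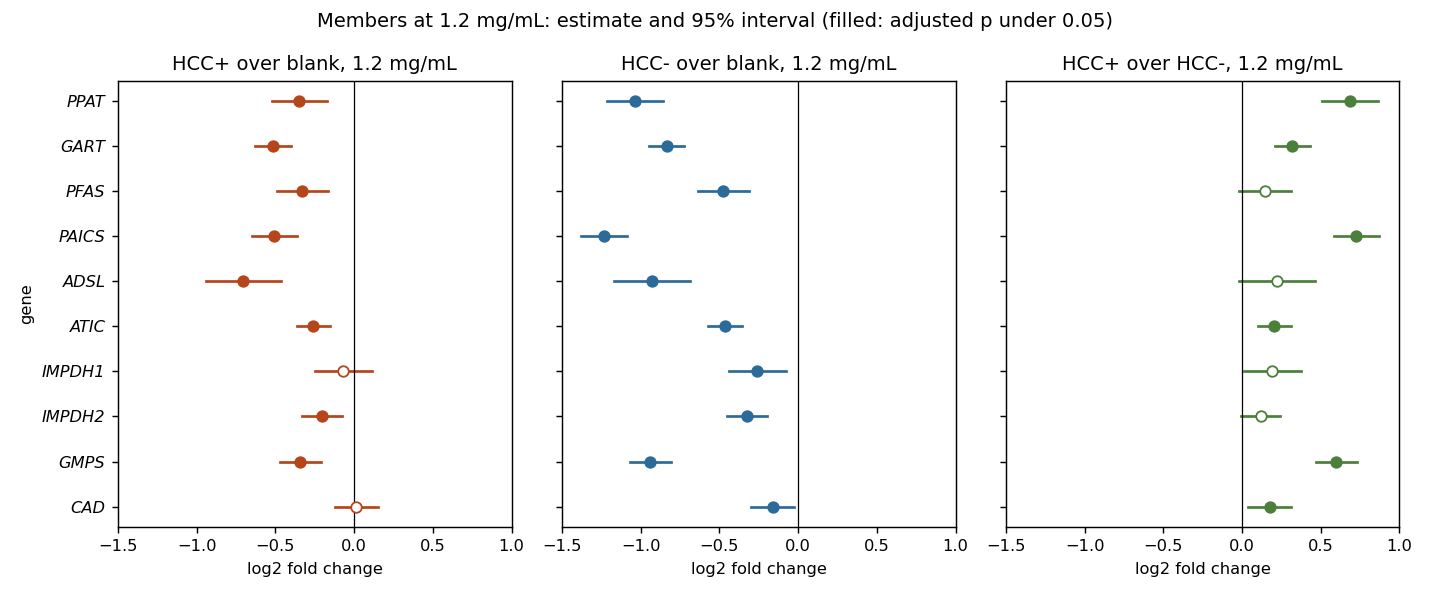
Log2 fold changes of the 10 genes at 1.2 mg/mL with 95% intervals derived from edgeR's F statistics, for HCC+ EVs over blank, HCC- EVs over blank, and HCC+ over HCC- EVs. Filled points passed an adjusted p under 0.05. PAICS has the lowest value with HCC- EVs, -1.23, and CAD sits at 0.01 with HCC+ EVs.

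HCC+ and HCC- EVs were compared directly to ask whether the source of the vesicles mattered at the same dose. At 1.2 mg/mL 6 of 10 members were higher with HCC+ than with HCC- EVs and none was lower, where 22.6% of tested genes rose. Over the other settings that kept every library this count ran from 4 with total count scaling to 7 with no filter on low counts. In these settings 2342 of 19556 and 4410 of 37659 tested genes rose, respectively. PAICS was higher by 0.73 ± 0.07 on the log2 scale (adjusted p 4.88e-10), PPAT by 0.69 ± 0.08 (adjusted p 8.45e-08) and GMPS by 0.60 ± 0.06 (adjusted p 3.99e-09), which are 1.65-fold, 1.61-fold and 1.51-fold. GART was higher by 0.32 ± 0.05 (adjusted p 1.33e-05), ATIC by 0.21 ± 0.05 (adjusted p 0.00148) and CAD by 0.18 ± 0.06 (adjusted p 0.0325). All HCC+ libraries lay above all HCC- libraries for these 6 members and IMPDH2, 7 of 10, where this held for 26% of tested genes. The ATIC call ended with total count scaling (0.04, adjusted p 0.531) and with GC and length trends removed (0.05, adjusted p 0.363). The CAD call ended without HCC+ replicate 2 or 3 or HCC- replicate 1 or 3, with adjusted p 0.0522, 0.185, 0.0907 and 0.149. It also ended with RLE size factors (adjusted p 0.0513), DESeq2 (0.0533), only the groups compared (0.0797) and total count scaling, where CAD was at 0.01 (adjusted p 0.905). PFAS (0.15, 95% interval -0.02 to 0.31), ADSL (0.22, -0.02 to 0.46), IMPDH1 (0.19, 0.01 to 0.37) and IMPDH2 (0.12, -0.01 to 0.24) did not pass, with adjusted p of 0.14, 0.13, 0.076 and 0.124. The median over the members was 0.21, beside 0.01 over all tested genes.

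The difference between sources depended on the dose for 5 of the members. At 0.24 mg/mL no member differed between HCC+ and HCC- EVs, and no tested gene did (0% called). The source effect at 1.2 mg/mL minus that at 0.24 mg/mL was positive and called for PAICS, PPAT, GMPS, GART and ATIC, 5 of 10 members, where 15.1% of tested genes were called in this direction. The difference was 0.75 ± 0.09 for PAICS (adjusted p 5.98e-07), 0.64 ± 0.12 for PPAT (adjusted p 0.00014) and 0.62 ± 0.09 for GMPS (adjusted p 3.1e-06). GART had 0.32 ± 0.07 (adjusted p 0.00203) and ATIC 0.27 ± 0.07 (adjusted p 0.00517).

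Between doses the fall of the members set in between 0.24 and 1.2 mg/mL. With HCC+ EVs 8 members were lower at 1.2 than at 0.24 mg/mL, where 15.5% of tested genes fell, and IMPDH1 (-0.08 ± 0.08, adjusted p 0.498) and CAD (0.03 ± 0.06, adjusted p 0.772) were not called. The HCC+ calls of ATIC (-0.15, adjusted p 0.0215) and IMPDH2 (-0.15, adjusted p 0.0462) were less stable: that of ATIC ended without HCC+ replicate 1 or 3 at 1.2 mg/mL or replicate 2 or 3 at 0.24 mg/mL (lowest and highest value -0.17 and -0.13), and that of IMPDH2 without any 1 of the 6 libraries (-0.16 to -0.14). Both also ended with total count scaling, with no filter and with GC and length trends removed, and that of IMPDH2 with RLE size factors and DESeq2 as well. With HCC- EVs all 10 were lower at 1.2 than at 0.24 mg/mL, where 28% of tested genes fell, with PAICS at -1.17 ± 0.07 (adjusted p 3e-15) and CAD at -0.16 ± 0.06 (adjusted p 0.0377). The CAD call ended without HCC- replicate 1 or 3 at 1.2 mg/mL or replicate 1 or 2 at 0.24 mg/mL (-0.22 to -0.12 over the 6 fits) and with RLE size factors, DESeq2, only the groups compared or total count scaling, and the IMPDH1 call (-0.28, adjusted p 0.00637) without HCC- replicate 3 at 1.2 mg/mL (-0.22, adjusted p 0.0569). No member was called between 0.24 and 0.048 mg/mL for either source, where 0% of tested genes were called with HCC+ EVs and 8.71% with HCC- EVs.

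Against the blank, no member was called with HCC+ EVs at 0.048 mg/mL (0% of tested genes called) or 0.24 mg/mL (0.00511%), nor with HCC- EVs at 0.24 mg/mL (0%). The summed CPM of the 6 enzymes up to IMP, not adjusted for exon length, was 1491 ± 55.6, 1502 ± 27.3 and 1517 ± 46.5 in these groups (SD, n = 3). It was 1450 ± 49.1 with HCC- EVs at 0.048 mg/mL. With HCC- EVs at 0.048 mg/mL, where 8.16% of tested genes fell and 8.28% rose, ADSL fell by 0.32 ± 0.11 on the log2 scale (adjusted p 0.0481) and IMPDH1 rose by 0.26 ± 0.08 (adjusted p 0.0337). ADSL had 11.8, 11.1 and 10.4 CPM in these cells and 14.0, 12.2 and 15.4 CPM in the blank, while IMPDH1 had 115, 115 and 110 CPM in these cells and 89.5, 111 and 82.6 CPM in the blank. ADSL did not overlap between the groups, and IMPDH1 did. Between sources at 0.048 mg/mL, where 2.46% of tested genes fell, PFAS was lower with HCC+ than with HCC- EVs by 0.26 ± 0.08 on the log2 scale (adjusted p 0.048). PFAS had 90.7, 84.0 and 85.7 CPM with HCC+ EVs and 109, 106 and 97.4 CPM with HCC- EVs, without overlap. Each of these 3 calls ended in 5 of 6 fits that left out a library: the ADSL and IMPDH1 calls held only without blank replicate 2 (ADSL -0.41 to -0.23 and IMPDH1 0.17 to 0.40 over the 6 fits), and the PFAS call only without HCC- replicate 3 (-0.31 to -0.23).

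GC content of the transcripts moved with these values, most clearly at the lowest dose of HCC- EVs. In that comparison the median log2 fold change over all tested genes was -0.25 in the lowest of 5 equal bins of GC content and 0.25 in the highest. IMPDH1, the most GC-rich member at 61.7%, was among those above 0, and PPAT and GMPS at 42.4% lay below. With GC and length trends removed from every library, IMPDH1 was at 0.01 (adjusted p 0.962), ADSL at -0.25 (adjusted p 0.289) and the PFAS difference between sources at -0.11 (adjusted p 0.416). At 1.2 mg/mL the medians of the lowest and highest bin were -0.13 and 0.20 with HCC+ EVs, and -0.22 and 0.27 with HCC- EVs. With trends removed, PAICS still fell by 1.03 on the log2 scale with HCC- EVs at 1.2 mg/mL, PPAT by 0.66 and GMPS by 0.66, and IMPDH2 (-0.04, adjusted p 0.37) was no longer called.

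**Figure D3:**
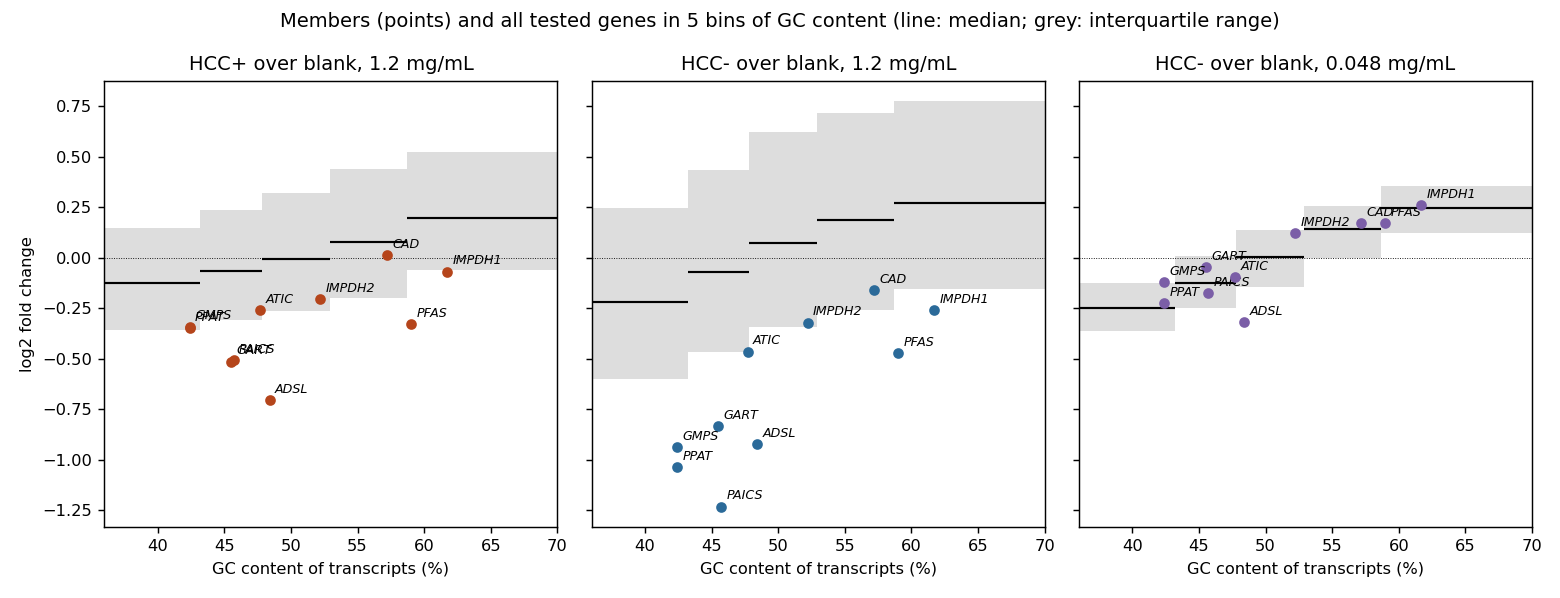
Log2 fold changes of the 10 genes (points) against the GC content of their transcripts in percent, over the median (line) and interquartile range (grey) of all tested genes in 5 bins of GC content, for HCC+ and HCC- EVs at 1.2 mg/mL and HCC- EVs at 0.048 mg/mL, each over blank. With HCC- EVs at 1.2 mg/mL PAICS, PPAT, GMPS, GART, ADSL, PFAS and IMPDH1 lie below the grey band, ATIC at its lower edge and IMPDH2 and CAD inside it, while at 0.048 mg/mL ADSL alone lies below it.

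Within a comparison, total count scaling shifted the members by nearly the same amount. Removing GC and length trends moved them by unlike amounts and in both directions. With HCC+ EVs at 1.2 mg/mL against blank, it moved PPAT from -0.35 to -0.20 and PFAS from -0.33 to -0.45. Total count scaling moved the median of all tested genes by 0.12 with HCC+ EVs at 1.2 mg/mL, by 0.28 with HCC- EVs and by -0.16 for HCC+ over HCC-. Over all tested genes, 3046 rose and 3398 fell with HCC+ EVs in the main scaling and 4657 rose and 2069 fell with total counts. With HCC- EVs 4844 rose and 5574 fell in the main scaling, against 8128 and 3097 with total counts and 7356 and 4029 with GC and length trends removed. For HCC+ over HCC- EVs 4411 rose and 2490 fell in the main scaling, 2342 rose and 4572 fell with total counts, and 3084 rose and 4812 fell with GC and length trends removed. PPAT, GART, PFAS, PAICS, ADSL, ATIC and GMPS fell with both sources at 1.2 mg/mL under every scaling tried. PPAT, GART, PAICS and GMPS were higher with HCC+ than with HCC- EVs under each of them. IMPDH1, IMPDH2 and CAD were not called against the blank with total counts.

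**Figure D4:**
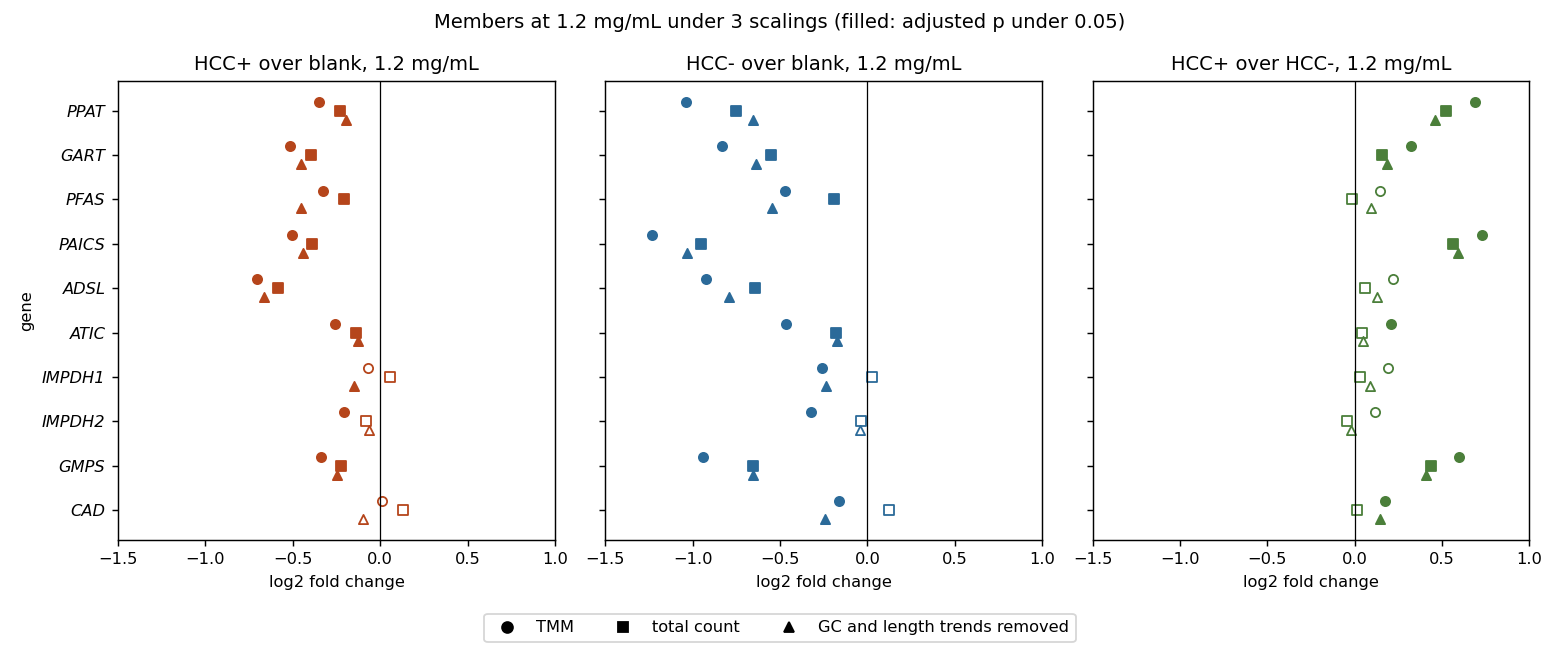
Log2 fold changes of the 10 genes at 1.2 mg/mL under TMM scaling (circles), total count scaling (squares) and with GC and length trends removed (triangles); filled points passed an adjusted p under 0.05. PAICS with HCC- EVs stays between -1.23 and -0.95, and CAD with HCC- EVs lies on either side of 0.

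Across the 21 libraries the members formed a graded set rather than 1 block. Pearson's r of log2 CPM over the 45 pairs ran from 0.25 for ADSL and CAD to 0.99 for PAICS and GMPS, with a median of 0.78. PPAT and PAICS had r = 0.97 and IMPDH1 and CAD 0.91. These r values describe 7 groups that share doses and scaling. Among genes outside the list, the closest pattern to PAICS was that of RRM1 (r = 0.996), the large subunit of ribonucleotide reductase, and the closest to GMPS was NASP (r = 0.995), a histone chaperone. CDC7, a kinase of DNA replication, was closest to PPAT (r = 0.99), RBM3 to GART (r = 0.995), DCLRE1A to ATIC (r = 0.983), MYH9 to PFAS (r = 0.981) and ETV5 to ADSL (r = 0.959). DDX54 was closest to IMPDH1 (r = 0.957) and CLUH to CAD (r = 0.95).

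The genes around these enzymes were read from 9 lists at 1.2 mg/mL. Beside the counts in each list, 17.4% of all tested genes fell and 15.6% rose with HCC+ EVs. With HCC- EVs 28.5% fell and 24.8% rose. Of the 4 genes for PRPP supply, 2 fell with HCC+ EVs and 3 with HCC- EVs. PRPS2, a PRPP synthetase, averaged 64.2 CPM with HCC+ EVs, 30.4 CPM with HCC- EVs and 87.2 CPM in the blank, changes of -0.44 ± 0.07 and -1.52 ± 0.07 against the blank (adjusted p 9.65e-06 and 3.15e-17). PRPS1, another PRPP synthetase, changed by -0.37 ± 0.06 with HCC+ EVs and -0.75 ± 0.06 with HCC- EVs (adjusted p 3.23e-05 and 2.39e-11). In the folate one-carbon list, which supplies formyl groups to GART and ATIC, 6 of 8 genes fell and 1 rose with HCC+ EVs, and 7 fell with HCC- EVs. The list's median was -0.67 with HCC+ and -1.25 with HCC- EVs. MTHFD1, the trifunctional cytosolic enzyme, averaged 148 CPM with HCC+ EVs and 84.1 CPM with HCC- EVs, against 223 CPM in the blank, and MTHFD2, its mitochondrial relative, 224 and 165 CPM against 436 CPM. SHMT1, the cytosolic serine hydroxymethyltransferase, rose by 0.23 ± 0.06 with HCC+ EVs (adjusted p 0.00178).

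In the salvage list, 5 of 10 genes fell and 1 rose with HCC+ EVs, where 17.4% of tested genes fell and 15.6% rose. With HCC- EVs 8 fell, where 28.5% of tested genes fell. The medians were -0.22 with HCC+ and -0.71 with HCC- EVs. HPRT1, which salvages hypoxanthine and guanine, averaged 34.9 CPM with HCC+ EVs and 15.4 CPM with HCC- EVs, against 62.8 CPM in the blank. Its log2 fold change was -0.85 ± 0.09 with HCC+ EVs and -2.03 ± 0.09 with HCC- EVs (adjusted p 1.23e-08 and 1.77e-17), the second a 4.09-fold lower level. ADK, adenosine kinase, fell with both, with changes of -0.41 ± 0.06 and -0.90 ± 0.06 (adjusted p 8.72e-06 and 4.19e-13). UCK1, a uridine-cytidine kinase, rose by 0.22 ± 0.09 with HCC+ EVs (adjusted p 0.0445), a call that ended in 6 of 13 other settings.

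After CAD, all 4 remaining genes of pyrimidine synthesis fell with HCC- EVs and 3 with HCC+ EVs, where 28.5% and 17.4% of tested genes fell. DHODH, the mitochondrial dehydrogenase, averaged 14.8 CPM with HCC+ EVs and 11.5 CPM with HCC- EVs, against 28.9 CPM in the blank (-0.97 ± 0.10 and -1.34 ± 0.10, adjusted p 6.51e-09 and 9.54e-13). CTPS1, a CTP synthetase, fell by 0.74 ± 0.06 with HCC- EVs (adjusted p 9.68e-12), and UMPS, which makes UMP, by 0.30 ± 0.06 with HCC+ EVs (adjusted p 0.000278). Among 9 nucleotide kinases, 6 fell and 1 rose with HCC+ EVs, and 7 fell and 1 rose with HCC- EVs. AK1, the cytosolic adenylate kinase, rose by 0.83 ± 0.13 and 0.78 ± 0.13 (adjusted p 1.48e-05 and 1.13e-05).

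Purine breakdown and interconversion held genes called in both directions, as did all tested genes. Of 8 tested genes of the list, 3 rose and 1 fell with HCC+ EVs, where 15.6% of all tested genes rose and 17.4% fell. With HCC- EVs 3 rose and 4 fell, where 24.8% of all tested genes rose and 28.5% fell. AMPD2, an AMP deaminase, averaged 75.5 CPM with HCC+ EVs and 90.5 CPM with HCC- EVs, against 50.0 CPM in the blank (0.59 ± 0.08 and 0.85 ± 0.08, adjusted p 4.11e-07 and 4.81e-11). GDA, guanine deaminase, rose by 0.70 ± 0.07 and 0.64 ± 0.07 (adjusted p 1.36e-08 and 1.09e-08). NT5E, the ecto-nucleotidase CD73, fell with changes of -0.59 ± 0.09 and -1.10 ± 0.09 (adjusted p 3.91e-06 and 4.37e-12). In the AMP branch, ADSS2, which commits IMP to AMP, averaged 64.7 CPM with HCC+ EVs and 48.0 CPM with HCC- EVs, against 73.5 CPM in the blank. Its HCC- change was -0.61 ± 0.07 (adjusted p 1.5e-08) and lost its call with GC and length trends removed. Its HCC+ change, -0.18 (adjusted p 0.0485), turned to 0.07 in that setting and was not called in 11 of 13 settings.

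**Figure D5:**
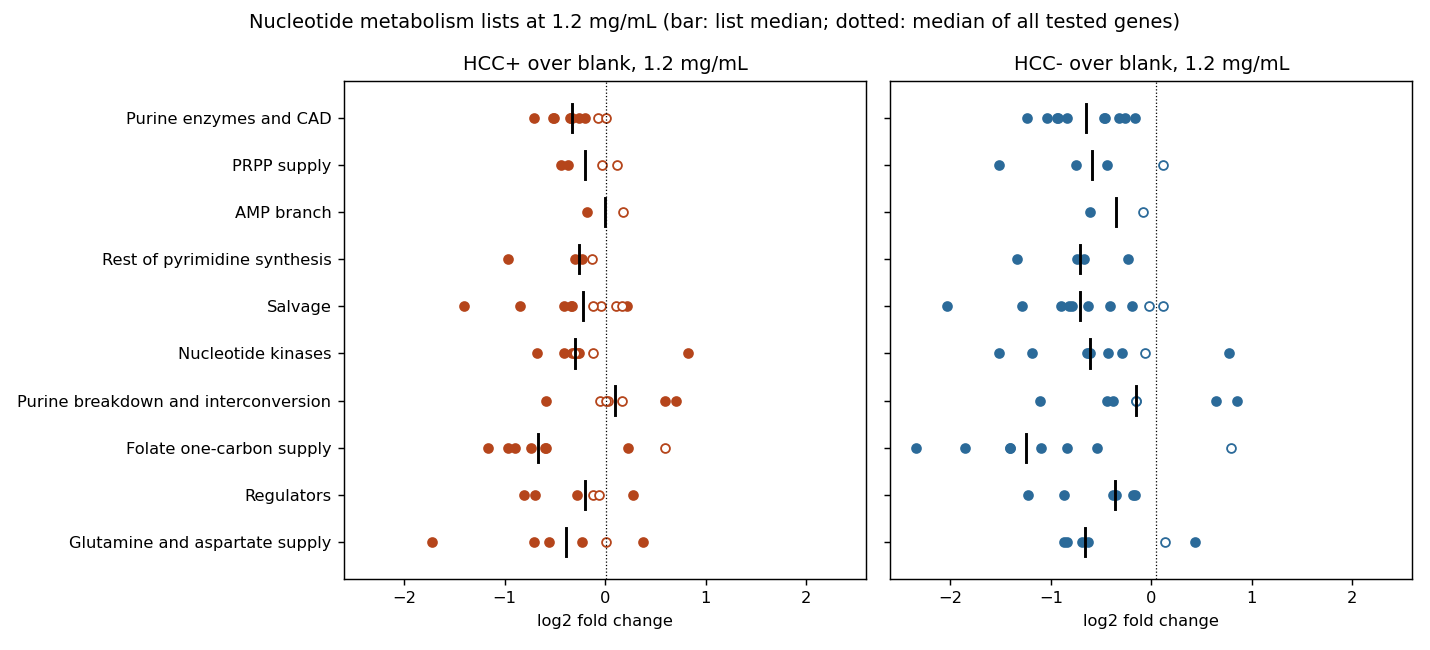
Log2 fold changes at 1.2 mg/mL of the genes in the 10 lists, for HCC+ and HCC- EVs over blank; each circle is a gene (filled where adjusted p was under 0.05), bars are list medians and the dotted line is the median of all tested genes. The folate list has the lowest medians, -0.67 and -1.25, and AMPD1, at 0.257 and 1.00 CPM with HCC+ and HCC- EVs, is left out.

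Of the 6 regulators, 3 fell and 1 rose with HCC+ EVs, where 17.4% of tested genes fell and 15.6% rose. All 6 fell with HCC- EVs, where 28.5% of tested genes fell. E2F1, a transcription factor of S phase genes, averaged 50.6 CPM with HCC+ EVs, 17.8 CPM with HCC- EVs and 41.6 CPM in the blank. It differed between HCC+ and HCC- EVs by 1.51 ± 0.09 (adjusted p 6.59e-14), above the member with the widest difference, PAICS at 0.73. E2F1 fell by 1.23 ± 0.09 with HCC- EVs (adjusted p 1.03e-12), while its rise of 0.28 with HCC+ EVs (adjusted p 0.0143) ended in 4 of 13 other settings. ATF4, the amino acid response factor, fell by 0.81 ± 0.07 with HCC+ EVs (adjusted p 7.42e-11) and was lower with HCC+ than with HCC- EVs by 0.43 ± 0.07 (adjusted p 4.31e-06), against the direction of the members. NRF1 fell by 0.69 ± 0.09 with HCC+ EVs and by 0.86 ± 0.09 with HCC- EVs (adjusted p 9.87e-07 and 3.43e-09). Of 6 genes for glutamine and aspartate supply, 4 fell and 1 rose with either source. ASNS, asparagine synthetase and a known ATF4 target, averaged 2.78 CPM with HCC+ EVs and 5.01 CPM with HCC- EVs, against 9.17 CPM in the blank. GLUL, glutamine synthetase, rose by 0.37 ± 0.06 and 0.44 ± 0.06 (adjusted p 2.06e-05 and 4.84e-07), and GOT1, an aspartate aminotransferase, fell by 0.84 ± 0.07 with HCC- EVs (adjusted p 1.9e-11).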

How the data were processed

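Poly(A) RNA of HCT-116 cells was sequenced in 21 libraries. Per the submitters' processing notes, cutadapt 3.4, HISAT2 2.2.1, featureCounts 2.0.1 and the build GRCh38 were used, and the authors deposited raw counts per gene. Not given in the sources used here were annotation release, strandedness and handling of multimapping reads. The same table also gives exon coordinates and merged exon length (bases). Symbols were found for 41967 of 65065 identifiers.

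All libraries entered 1 model of 7 group means in edgeR 4.0.16 (R 4.3.3) with TMM factors, filterByExpr, robust quasi-likelihood F tests and 14 residual degrees of freedom. Calls used a Benjamini-Hochberg adjusted p under 0.05 over the 19556 tested genes of a comparison. The common biological coefficient of variation was 0.0885. Library totals of 31.22 to 64.01 M (mega) counts limit the precision of genes with few counts. Replicates differed by 4.55 to 27 times counting noise per gene (chi-square), so none was a duplicate. GC content, taken from transcripts of GENCODE v29, was available for 99.7% of the genes tested. Alternatives were RLE factors, total count scaling, no filter beyond 1 count, DESeq2 1.42.0, a replicate block, only the groups compared, GC and length trends removed, and each library left out.

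The text names every member, up to 2 rising and 2 falling called genes with the smallest p of each neighbouring list in each of 3 comparisons at 1.2 mg/mL, and for each member the gene with the highest r among tested genes with a mean log2 CPM of at least 1. The text gives part of the genes so named, and some are not reported here. The members and lists were chosen with earlier results of these data known.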

Additional observations from a re-analysis of the deposited data

Results flagged for a closer look

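For 5 members the difference between HCC+ and HCC- EVs was itself different between 1.2 and 0.24 mg/mL, by a direct test of that difference in edgeR with Benjamini-Hochberg adjustment. The log2 difference was 0.75 for PAICS (SE 0.09, adjusted p 5.98e-07), 0.64 for PPAT (SE 0.12, adjusted p 0.00014) and 0.62 for GMPS (SE 0.09, adjusted p 3.1e-06). It was 0.32 for GART (SE 0.07, adjusted p 0.00203) and 0.27 for ATIC (SE 0.07, adjusted p 0.00517). The first 3 passed in every setting tried, while GART did not with total count scaling (0.16, adjusted p 0.0921), and ATIC did not with total count scaling (0.12, adjusted p 0.243) or with GC and length trends removed (0.10, adjusted p 0.198).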

How the results depend on the processing

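At 1.2 mg/mL against the blank, PPAT, GART, PFAS, PAICS, ADSL, ATIC and GMPS kept direction and call for both sources in every setting run, as did PPAT, GART, PAICS and GMPS for HCC+ over HCC- EVs. IMPDH1, IMPDH2 and CAD depended on the setting, and the causes were not tested. With total count scaling, IMPDH1 was at 0.0536 (HCC+ against blank), 0.0247 (HCC- against blank) and 0.0229 (HCC+, 1.2 against 0.24 mg/mL). CAD was at 0.1211 (HCC- against blank) and 0.1019 (HCC-, 1.2 against 0.24 mg/mL). HCC+ over HCC- at 1.2 mg/mL turned to -0.0171 for PFAS and -0.0451 for IMPDH2, and the source effect at 1.2 minus that at 0.24 mg/mL to -0.0553 and -0.0249. With GC and length trends removed, CAD was at -0.0966 (HCC+ against blank) and -0.0258 (HCC+, 1.2 against 0.24 mg/mL), and IMPDH2 at -0.0208 (HCC+ over HCC-) and -0.0071 (difference of source effects). With 1 library left out, IMPDH1 in HCC+ against blank ran from -0.1583 to 0.0675 and CAD from -0.0311 to 0.0786, and CAD in HCC+ at 1.2 against 0.24 mg/mL from -0.0098 to 0.0524.

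Counts of called members moved mostly at the low doses. With HCC- EVs at 0.048 mg/mL against blank (1 rose, 1 fell), members that rose numbered 0 with trends removed, 0 with only the groups compared, 2 with DESeq2 and 0 to 4 with a library left out. Those that fell numbered 3 with total counts, 0 with trends removed, 0 with only the groups compared, 3 with DESeq2 and 0 to 3 with a library left out. Counts over all tested genes moved as well. There 1620 rose and 1596 fell of 19556 tested as reported, 41 and 46 with trends removed, and 2076 and 2062 with DESeq2. With only the groups compared 831 rose and 1145 fell of 16520 tested, and with total counts 1453 and 1741 of 19556. Without blank replicate 2 these were 2925 and 2801 of 20370 tested, and without blank replicate 1 they were 0 and 1 of 20352. For HCC+ over HCC- at 0.048 mg/mL (1 fell), those that fell numbered 0 with total counts, 2 with no filter, 0 with trends removed, 4 with only the groups compared (1 rose there), 3 with DESeq2 and 0 to 1 with a library left out. Over all tested genes 481 of 19556 fell as reported, 282 with total counts, 850 of 37659 with no filter and 10 with trends removed. With only the groups compared 2101 fell and 1540 rose of 16703 tested, and 1462 of 19556 fell with DESeq2. For HCC- at 0.24 against 0.048 mg/mL (0 fell), 1 fell with RLE, 2 with no filter, 2 with the replicate block, 3 with only the groups compared, 4 with DESeq2 and 0 to 4 with a library left out. Over all tested genes 950 of 19556 fell as reported, 1050 with RLE, 1180 of 37659 with no filter and 1155 with the replicate block. With only the groups compared 1547 of 16945 tested fell, and 1687 of 19556 with DESeq2. With total counts 6 fell for HCC- at 1.2 against 0.24 mg/mL (10 as reported, 9 with RLE, DESeq2, only the groups compared or trends removed, and 8 to 10 with a library left out), and 3 had a called positive difference of source effects (5 as reported). Over all tested genes these numbers were 3110 (5468 as reported) and 1440 (2947 as reported). For HCC- at 1.2 against 0.24 mg/mL, 5215 fell with RLE, 5303 with DESeq2 and 3953 with trends removed. With only the groups compared, 5096 of 18418 tested fell there. The replicate block changed no call among the 63 member results followed 1 by 1. Those results leave out members not called at the lower doses, so the 2 calls gained there with the block are not among them. Residuals of same-numbered libraries correlated above 0.1 in 1 of 63 pairs, so numbers were not taken to pair libraries. Depth limits ADSL most, with 10514 counts in all.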
